A study of Mus musculus with 6 samples.

Results

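Toll-like receptors, their adaptor Myd88 and the co-receptor Cd14 were followed in microglia, the resident macrophages of the brain, from mice lacking the microRNA gene Mir137. The 10 genes, Tlr1, Tlr2, Tlr3, Tlr4, Tlr6, Tlr7, Tlr9, Tlr13, Myd88 and Cd14, were taken by symbol from a table of 24411 gene symbols, where each had 1 entry. RNA was sequenced in 6 libraries of primary microglia purified from adult brain. The Mir137 knockout group (gKO) had 3 libraries and the Mir137 wild-type group (gWT) had 3. Both groups were 8 weeks old and on the C57BL/6J strain, and no treatment is given for either. Nothing in the labels assigns the libraries of a genotype to separate animals, and the design text speaks of 4 mice. All p-values here hence measure how far these 6 libraries scatter, and that scatter could be technical. The comparison asks what the loss of this microRNA does to the RNA of microglia.

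Toll-like receptors are membrane proteins that recognise molecules of microbes and damaged cells. Some sit at the cell surface, where they meet lipids and lipopeptides, and others sit in endosomes, where they meet nucleic acids. Ligand-bound receptors gather adaptor proteins, chiefly MyD88, which recruits IRAK kinases and the ubiquitin ligase TRAF6 and ends in the activation of NF-kB and interferon regulatory factors. Microglia carry these receptors in the resting brain and answer their ligands with tumour necrosis factor and chemokines.

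The mature microRNA that gKO mice lack is shown first, because its seed decides which messenger RNAs it can pair with. In the RefSeq sequence of the main strand (GRCm38.p6, chr3:118433901-118433923, plus strand), capitals mark the seed, bases 2 to 8 from the 5′ end:
mmu-miR-137-3p: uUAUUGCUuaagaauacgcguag
The complement of that seed, AGCAATA read on the messenger strand only, was searched in the longest annotated 3′ UTR of each gene. It was found in 0 of the 10 genes, whose 3′ UTRs were 148 bases (Tlr2) to 1496 bases (Tlr3) long. Of the 12587 tested genes with an annotated 3′ UTR of any length, 10.4% held it. No match says only that these 7 letters are not in these stretches.

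Tlr1 and Tlr6 are neighbours on chromosome 5 and share much of their sequence, which bears on how their reads could be counted. Their coding sequences of 2385 and 2418 bases were identical at 74.8% of 2368 aligned bases. The longest identical run was 229 bases, and 19.4% of all 50-base windows of the Tlr1 coding sequence also occurred in Tlr6. The end of that run is printed below from GENCODE M21 transcripts, 5′ to 3′ on the coding strand, which is the minus strand (GRCm38, chr5:64925507-64925626 for Tlr1 and chr5:64953798-64953917 for Tlr6). The capital marks the single base that differs, G1697A, with the Tlr1 base first and the position counted from 1 at the start of the Tlr1 coding sequence:
Tlr1: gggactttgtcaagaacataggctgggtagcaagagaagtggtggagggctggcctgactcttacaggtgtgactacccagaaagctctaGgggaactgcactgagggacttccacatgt
Tlr6: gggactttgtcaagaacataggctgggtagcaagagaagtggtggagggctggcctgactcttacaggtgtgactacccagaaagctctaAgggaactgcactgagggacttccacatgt

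The libraries held 14603884 to 17652976 counts in gKO and 16328561 to 17306422 in gWT. Levels below are CPM values, read counts divided by the library total and scaled between libraries by TMM. gKO replicate 3 stood apart. Its coordinate on the first principal component (39.0% of the variance) was 91.5, and those of the other 5 libraries were -37.7 to -3.45. Across genes, which are not independent replicates, its deviation from the mean of all libraries went with exon length at a Spearman rho of -0.44, against -0.06 to 0.27 in the others. Mir137 itself had 0 counts in all 6 libraries and checks nothing about the labels. Xist, the RNA that silences an X chromosome in female cells, had 0, 0 and 0.566 CPM in gKO libraries, against 148, 114 and 107 CPM in gWT libraries, whereas the Y-linked genes were detected in all 6 libraries. Of these, Ddx3y had 98.6 ± 9.90 CPM in gKO libraries and 74.6 ± 2.49 CPM in gWT libraries (± SD, n = 3 per genotype). Eif2s3y had 59.6 ± 14.3 CPM in gKO libraries and 44.8 ± 4.37 CPM in gWT libraries, Kdm5d 23.3 ± 6.48 CPM in gKO and 20.7 ± 2.28 CPM in gWT, and Uty 21.6 ± 5.93 CPM in gKO and 21.9 ± 1.55 CPM in gWT. The labels give no sex for any library. The 10 markers of microglia summed to 40385 to 42917 CPM in gKO and 39720 to 42695 CPM in gWT.

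All 10 genes were well detected, with 358 to 8660 counts per library, and all 10 passed the filter on low counts. None was called higher or lower at an adjusted p under 0.05 by edgeR's quasi-likelihood test, in which 0.627% of 13403 tested genes were called (0.395% higher and 0.231% lower). Only Tlr7, 1 of the 10 genes, had an unadjusted p under 0.05, as did 1460 of the 13403 tested genes. DESeq2 called Tlr7 higher, as it did 1.2% of its tested genes. Limma-voom called 0 of the 10 genes, and with sample quality weights it called Tlr7 higher, where 2.13% of tested genes were called higher and 1.29% lower. With the trend of each library with exon length removed, edgeR called Tlr7 higher, as it did 0.766% of tested genes. Without gKO replicate 3, edgeR called Tlr7 and Tlr13 higher, where 3.99% of tested genes were called higher and 3.82% lower. The log2 fold change of gKO over gWT was positive for 7 genes and negative for 3, with a median of 0.07, beside 0.01 over all tested genes. Tlr2 and Tlr6 are among the 7 only narrowly, at 0.02 each, and turned negative under upper-quartile scaling. The libraries of the groups did not overlap for 1 of the 10 genes, Tlr7, against 21.3% of all tested genes. For 8 genes the highest library was less than 2 times the lowest.

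**Figure D1:**
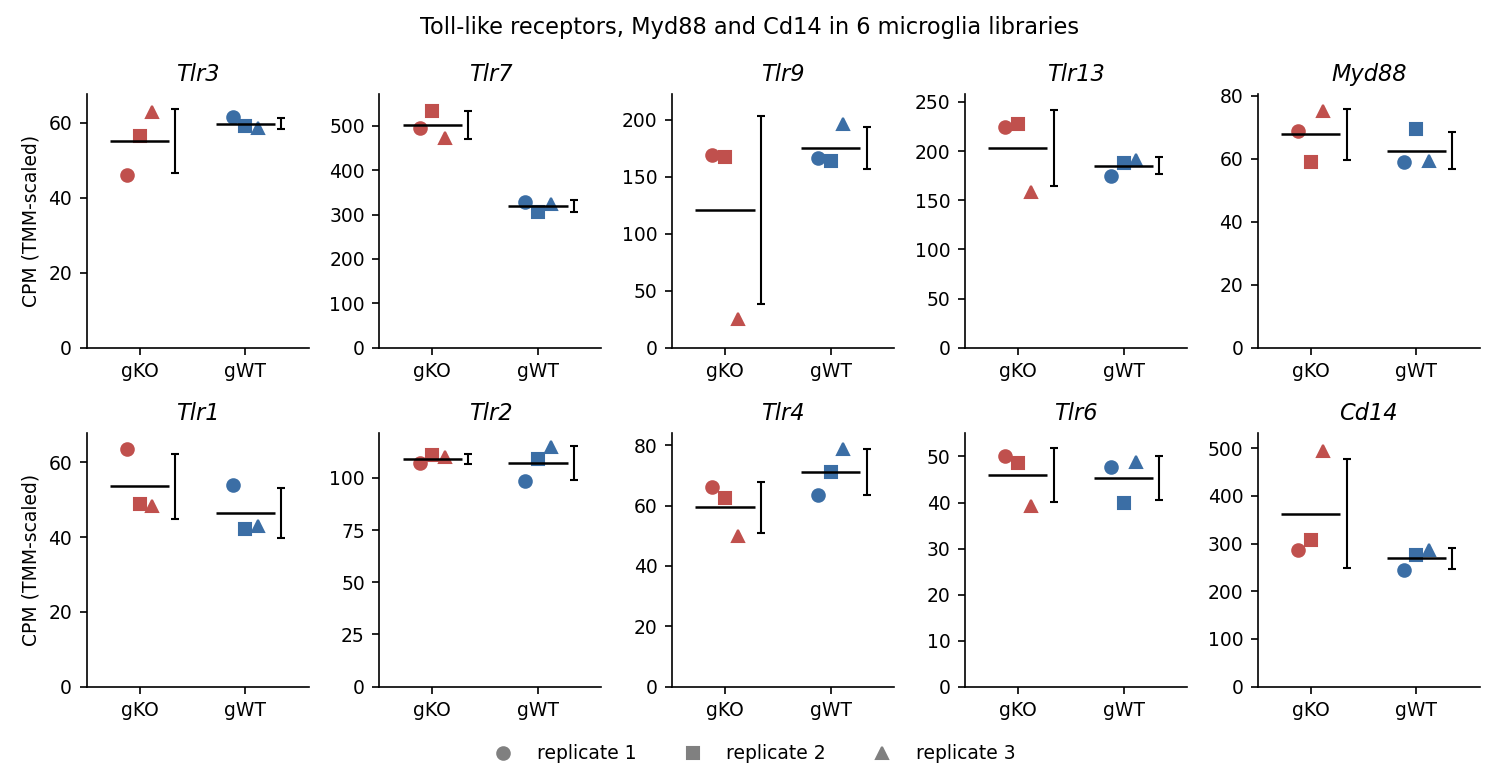
CPM scaled by TMM (y axis, from 0, a separate scale per gene) in the 3 gKO libraries (red, left) and the 3 gWT libraries (blue, right) of each panel. Marker shapes give the replicate number, horizontal lines the mean and vertical bars the SD over 3 libraries. Tlr7 is the panel in which the groups are apart, and the Tlr9, Tlr13 and Cd14 panels show gKO replicate 3 (red triangle) away from the other red points.

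Among the receptors of endosomes, Tlr7 showed the clearest difference. Tlr7 (chromosome X, 167304929 to 167330558, minus strand, GRCm38) recognises single-stranded RNA. It had 496, 534 and 472 CPM in gKO libraries 1 to 3, against 329, 305 and 323 CPM in gWT libraries 1 to 3. All 3 gKO libraries lay above all 3 gWT libraries, and gKO replicate 3 was the lowest of its group. The means were 501 ± 31.4 CPM in gKO libraries and 319 ± 12.7 CPM in gWT libraries (± SD, n = 3 per genotype), a ratio of 1.57. On the log2 scale the fold change was 0.65 (SE 0.12, 95% interval 0.38 to 0.92). The unadjusted p was 0.000502, the 103rd smallest of all tested genes, and edgeR's adjusted p was 0.0647. More cells that express a gene and more RNA per cell cannot be told apart in such bulk samples.

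The size of the Tlr7 difference changed little between methods, and its call changed. Its log2 fold change lay between 0.60 and 0.69 in all 16 fits, which include leaving out each library in turn. The adjusted p was 8.92e-05 by DESeq2, 0.0516 by limma-voom, 8.05e-05 by limma-voom with sample quality weights and 0.0162 by edgeR after each library's trend with exon length was removed. Leaving out gKO replicate 3 gave an adjusted p of 2.11e-05 by edgeR. Leaving out any 1 of the other 5 libraries gave 0.182 to 0.432 by edgeR, and edgeR then called 0 genes of the whole table if the missing library was a gWT one.

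Tlr7 and Tlr13 are X-linked, so the Xist values stand beside them. Of 446 tested genes on chromosome X, 2 were called higher and 1 lower by edgeR, and their median log2 fold change was 0.06. The log2 fold change of Tlr7 was above that of 91.9% of the tested X-linked genes. Xist differed between the genotypes without overlap, and the gWT libraries held Y-linked RNA beside it. Any part of sex in the Tlr7 and Tlr13 values, or in any other difference here, cannot be told apart from that of genotype. It was not tested.

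Tlr9 (chromosome 9, 106222598 to 106226883, plus strand) recognises DNA with unmethylated CpG. It had 169, 167 and 25.3 CPM in gKO libraries 1 to 3, against 166, 164 and 196 CPM in gWT libraries 1 to 3. gKO replicates 1 and 2 lay within the gWT range, and gKO replicate 3 lay far below every other library, with 358 counts against 2434 to 3349 in the others. The mean was 121 ± 82.5 CPM in gKO libraries and 175 ± 18.3 CPM in gWT libraries (± SD, n = 3 per genotype). The log2 fold change of -0.54 (SE 0.56, 95% interval -1.82 to 0.74, adjusted p = 0.794 by edgeR) was -0.07 (SE 0.09, adjusted p = 0.714) without gKO replicate 3. The size of the difference over all 6 libraries thus rests on a single library.

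Few other genes were as low as Tlr9 in gKO replicate 3. By a criterion chosen after the values were seen, a level more than 4 times below the lowest of the other 5 libraries at a mean of at least 10 CPM, 65 of 8859 genes (0.734%) were that low in that library. The same criterion gave 3 and 1 genes in gKO replicates 1 and 2, and 1, 0 and 0 genes in gWT replicates 1 to 3. Among the genes of the pathway listed here, the 65 included Tlr9, Pik3ap1, an adaptor between Toll-like receptors and phosphoinositide 3-kinase, and Il1rl2, the interleukin-36 receptor. Pik3ap1 had 160, 139 and 21.2 CPM in gKO libraries 1 to 3, against 152, 142 and 162 CPM in gWT libraries. Over the 6 libraries its centred log2 profile was the closest to that of Tlr9 among 12668 genes, at a Euclidean distance of 0.181 beside a median of 2.63. Glg1 (0.191) and Wdfy2 (0.199), which are in none of the lists here, were nearly as close and share the low value in gKO replicate 3. The flagellin receptor Tlr5 had 26.3, 27.0 and 5.73 CPM in gKO libraries and 22.4, 19.5 and 23.7 CPM in gWT libraries. Tlr8, the X-linked neighbour of Tlr7, had 4.41, 6.38 and 0.0707 CPM in gKO libraries and 3.71, 5.71 and 5.39 CPM in gWT libraries. Both were lowest in gKO replicate 3 as well. What sets that library apart was not tested.

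Tlr13 (chromosome X, 106143204 to 106160493, plus strand) recognises bacterial ribosomal RNA in mice. It had 224, 227 and 158 CPM in gKO libraries 1 to 3, against 175, 188 and 191 CPM in gWT libraries 1 to 3. gKO replicates 1 and 2 were the highest of the 6 libraries and gKO replicate 3 was the lowest. The means were 203 ± 39.0 CPM in gKO libraries and 185 ± 8.55 CPM in gWT libraries (± SD, n = 3 per genotype), with a log2 fold change of 0.14 (SE 0.16, 95% interval -0.24 to 0.51, adjusted p = 0.826 by edgeR). Without gKO replicate 3 it was 0.28 (SE 0.07, adjusted p = 0.027), which passed the threshold, and limma-voom with sample quality weights gave 0.24 at an adjusted p of 0.244.

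Tlr3 (chromosome 8, 45395665 to 45411080, minus strand) recognises double-stranded RNA and signals through the adaptor TRIF. It is the only receptor here that does not use MyD88. It had 46.1, 56.6 and 62.9 CPM in gKO libraries 1 to 3, against 61.5, 59.2 and 58.6 CPM in gWT libraries 1 to 3. The gWT libraries lay close together and inside the wider gKO range. This gave a log2 fold change of -0.12 (SE 0.16, 95% interval -0.47 to 0.24, adjusted p = 0.846 by edgeR), and -0.23 (adjusted p = 0.273) without gKO replicate 3.

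At the cell surface, Tlr2 (chromosome 3, 83836272 to 83841767, minus strand) pairs with Tlr1 or Tlr6 to recognise bacterial lipopeptides. Tlr2 had 107, 111 and 110 CPM in gKO libraries 1 to 3, against 98.6, 109 and 115 CPM in gWT libraries 1 to 3. The gKO values lay inside the gWT range. Over the 6 libraries the highest value was 1.16 times the lowest, the smallest such ratio of the 10 genes. The means of 109 ± 2.21 CPM in gKO libraries and 107 ± 8.11 CPM in gWT libraries (± SD, n = 3 per genotype) gave a log2 fold change of 0.02 (SE 0.12, 95% interval -0.26 to 0.30, adjusted p = 0.968 by edgeR). These libraries cannot tell values inside that interval from 0.

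Tlr1 (chromosome 5, 64924679 to 64933563, minus strand) recognises triacylated lipopeptides together with Tlr2. It had 63.6, 48.8 and 48.4 CPM in gKO libraries 1 to 3, against 54.1, 42.3 and 43.0 CPM in gWT libraries 1 to 3. Replicate 1 was the highest library of either group, and the groups overlapped. edgeR gave a log2 fold change of 0.21 (SE 0.18, 95% interval -0.20 to 0.61, adjusted p = 0.752).

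Tlr6 (chromosome 5, 64952031 to 64960097, minus strand) recognises diacylated lipopeptides together with Tlr2. It had 50.2, 48.5 and 39.2 CPM in gKO libraries 1 to 3, against 47.7, 39.9 and 48.7 CPM in gWT libraries 1 to 3. The groups overlapped almost wholly, and the log2 fold change was 0.02 (SE 0.16, 95% interval -0.36 to 0.39, adjusted p = 0.984 by edgeR).

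The split of reads between Tlr1 and Tlr6 is uncertain, given the shared stretch printed above. Their deposited counts were not whole numbers in 5 of the 6 libraries, 1110.09 for Tlr1 and 876.91 for Tlr6 in gKO replicate 1 for example, whereas the other 8 genes had whole counts in every library. The sum of the pair was whole, within 0.005, in 6 of 6 libraries, at 1987, 1418 and 1238 counts in gKO libraries and 1728, 1439 and 1565 counts in gWT libraries. Fractional counts occurred in 7.27% of tested genes. The ratio of Tlr1 to Tlr6 was 1.27, 1.01 and 1.23 in gKO libraries and 1.13, 1.06 and 0.883 in gWT libraries, and the groups overlapped. Summed as a single feature, the pair had 99.6 ± 13.4 CPM in gKO libraries and 92.0 ± 9.90 CPM in gWT libraries (± SD, n = 3 per genotype), with a log2 fold change of 0.11 (SE 0.15, 95% interval -0.23 to 0.46, adjusted p = 0.841 by edgeR).

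Tlr4 (chromosome 4, 66827584 to 66930284, plus strand) recognises lipopolysaccharide. It had 66.1, 62.4 and 50.0 CPM in gKO libraries 1 to 3, against 63.7, 71.0 and 78.8 CPM in gWT libraries 1 to 3. Only gKO replicate 1 lay within the gWT range, just above its lowest library, and the other gKO libraries lay below it. The means were 59.5 ± 8.43 CPM in gKO libraries and 71.2 ± 7.58 CPM in gWT libraries (± SD, n = 3 per genotype). The log2 fold change was -0.26 (SE 0.16, 95% interval -0.63 to 0.11, adjusted p = 0.633 by edgeR), and -0.16 (adjusted p = 0.451) without gKO replicate 3.

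Cd14 (chromosome 18) hands lipopolysaccharide to Tlr4 and its partner Ly96. It had 286, 308 and 495 CPM in gKO libraries 1 to 3, against 245, 277 and 286 CPM in gWT libraries 1 to 3. gKO replicate 1 met the highest gWT library, gKO replicate 2 lay just above it, and gKO replicate 3 stood far above all others. The means were 363 ± 115 CPM in gKO libraries and 269 ± 21.4 CPM in gWT libraries (± SD, n = 3 per genotype). The log2 fold change of 0.43 (SE 0.21, 95% interval -0.06 to 0.92, adjusted p = 0.527 by edgeR) was 0.13 (SE 0.08, adjusted p = 0.333) without gKO replicate 3 and 0.32 (adjusted p = 0.209) after each library's trend with exon length was removed. Cd14 has the shortest exons of the 10 genes, at 1732 bases, while those of the others measure 2576 to 5556 bases. Neutrophils and monocytes also express Cd14. The neutrophil markers, 11 of 12 tested and none at 0 in every library, summed to 557, 544 and 1020 CPM in gKO libraries and 276, 349 and 331 CPM in gWT libraries, and edgeR called 2 of them higher. Of the 10 monocyte markers, 8 had a positive log2 fold change (median 0.62), and edgeR called 2 higher, Chil3 and Hp. Their sum was 759, 827 and 584 CPM in gKO libraries and 1076, 850 and 909 CPM in gWT libraries. The 2 markers with a negative value make up most of that sum, Fn1 with 277 ± 120 CPM in gKO libraries and 552 ± 117 CPM in gWT libraries, and F13a1 with 277 ± 49.7 CPM in gKO libraries and 303 ± 16.6 CPM in gWT libraries (± SD, n = 3 per genotype). The part of these cells in the Cd14 values was not tested.

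Myd88 (chromosome 9, 119335934 to 119341411, minus strand) encodes the adaptor that all of these receptors but Tlr3 use. It had 68.8, 59.0 and 75.2 CPM in gKO libraries 1 to 3, against 58.9, 69.3 and 59.3 CPM in gWT libraries 1 to 3. The groups overlapped, each with libraries near 59 CPM. The means were 67.7 ± 8.14 CPM in gKO libraries and 62.5 ± 5.89 CPM in gWT libraries (± SD, n = 3 per genotype), with a log2 fold change of 0.11 (SE 0.15, 95% interval -0.23 to 0.46, adjusted p = 0.842 by edgeR). Without gKO replicate 3 it was 0.02 (adjusted p = 0.935).

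**Figure D2:**
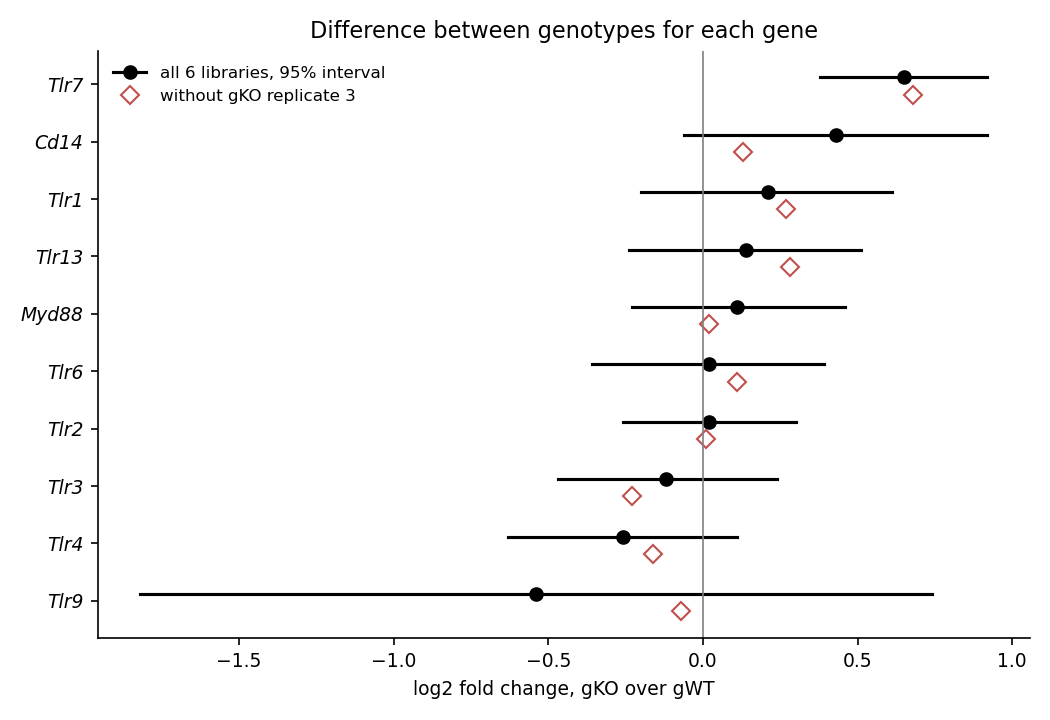
Log2 fold change of gKO over gWT (x axis) for each of the 10 genes (y axis), from edgeR. Black points with bars are the fit of all 6 libraries with its 95% interval, and open red diamonds are the fit without gKO replicate 3. The interval of Tlr7 is the one that excludes 0, at 0.38 to 0.92, and the values of Tlr9 (-0.54 against -0.07), Cd14 (0.43 against 0.13) and Tlr13 (0.14 against 0.28) move most when that library is left out.

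Levels of different genes can be compared only per length, and are given next as CPM per kilobase of annotated exon. In gKO, Cd14 led with 210 ± 66.4, followed by Tlr7 with 123 ± 7.69, Tlr13 with 47.2 ± 9.07, Tlr2 with 36.2 ± 0.732 and Tlr9 with 34.7 ± 23.7 (SD, n = 3). Below them came Myd88 with 26.3 ± 3.16, Tlr1 with 16.0 ± 2.59, Tlr6 with 12.3 ± 1.59, Tlr4 with 10.7 ± 1.52 and Tlr3 with 10.6 ± 1.63 CPM per kilobase. Neighbours whose libraries overlapped in this gKO order were Tlr13 and Tlr2, Tlr2 and Tlr9, Tlr9 and Myd88, Tlr6 and Tlr4, and Tlr4 and Tlr3.

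The gWT order had Tlr9 above Tlr13 and Tlr2, and Tlr4 above Tlr6. Cd14 had 156 ± 12.3, Tlr7 78.2 ± 3.12, Tlr9 50.3 ± 5.25, Tlr13 42.9 ± 1.99 and Tlr2 35.6 ± 2.69 CPM per kilobase (SD, n = 3). Myd88 had 24.3 ± 2.29, Tlr1 13.9 ± 1.98, Tlr4 12.8 ± 1.36, Tlr6 12.2 ± 1.28 and Tlr3 11.5 ± 0.293 CPM per kilobase. Only the last neighbours, Tlr1 with Tlr4, Tlr4 with Tlr6 and Tlr6 with Tlr3, overlapped in gWT. Per length, Tlr7, Tlr13 and Tlr2 lay above the lipopolysaccharide receptor Tlr4 in every library. Tlr9 did so in every library but gKO replicate 3, where it was at 7.28 and Tlr4 at 9.0.

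Tlr7 made up a larger share of the summed per-kilobase level of the 12 Toll-like receptors in the table in gKO. Its share was 37.0%, 39.0% and 45.9% in gKO libraries 1 to 3 (40.7% ± 4.67, SD, n = 3), against 29.6%, 28.1% and 27.5% in gWT libraries (28.4% ± 1.10). The gKO shares lay above all gWT shares, and the highest belonged to gKO replicate 3, in which Tlr9 and Tlr13 were low. With coding length in place of exon length the shares were 38.4% ± 4.00 in gKO and 26.8% ± 1.04 in gWT, and Myd88, whose coding part is short, moved up to the 3rd place in the order of levels in both genotypes. Per coding length Tlr9 no longer stood above Tlr13 in gWT, at 56.6 ± 5.90 against 62.1 ± 2.88 CPM per kilobase (SD, n = 3), and their libraries overlapped.

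**Figure D3:**
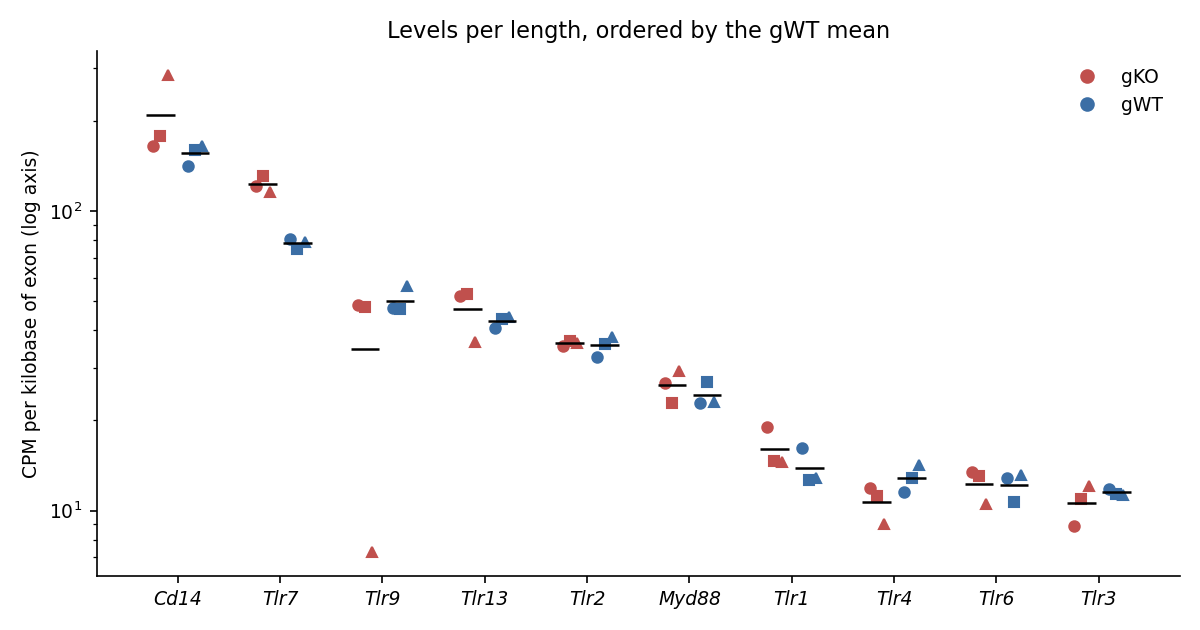
CPM per kilobase of exon (y axis, log scale) of the 10 genes (x axis, ordered by the gWT mean) in the gKO libraries (red, left of each pair) and the gWT libraries (blue, right). Marker shapes give the replicate number as in the plot by library, and lines give the mean of 3 libraries. Cd14 and Tlr7 lie above the rest in both genotypes, and the lowest point of all is Tlr9 in gKO replicate 3, at 7.28.

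The tested genes with the profile most like that of Tlr7 over the 6 libraries, by Euclidean distance between centred log2 CPM, were Csrnp1 (0.116), Foxn2 (0.12) and Tagap1 (0.133), beside a median distance of 1.09 over 12668 genes. Csrnp1 had 86.3, 91.2 and 86.7 CPM in gKO libraries and 56.8, 55.2 and 54.0 CPM in gWT libraries. The log2 fold changes of the 3 genes were 0.67, 0.63 and 0.70, and edgeR's adjusted p was 0.0673, 0.164 and 0.127, so none was called. For Cd14, by a choice made after its values were seen, the closest were H3f3b (0.0724), Mmadhc (0.0871) and Smndc1 (0.0891), which share its high value in gKO replicate 3.

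Of the other Toll-like receptors, edgeR called 0 of 4, 0 had an unadjusted p under 0.05, and DESeq2 and both forms of limma-voom called 0. Tlr12, a receptor of the protozoan protein profilin, came closest. It had 33.5, 30.2 and 25.3 CPM in gKO libraries, against 40.7, 34.5 and 38.5 CPM in gWT libraries, and the groups did not overlap. Its log2 fold change was -0.35 (SE 0.17, adjusted p = 0.509 by edgeR). Tlr11, its partner, was near the limit of detection at 0.573, 0.823 and 2.26 CPM in gKO libraries and 0.177, 0.629 and 0.644 CPM in gWT libraries.

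The proteins that work beside the receptors were looked at as lists by role. Over the whole table, 1460 of 13403 tested genes had an unadjusted p under 0.05. Without gKO replicate 3, edgeR called 3.99% of tested genes higher and 3.82% lower. Of 7 surface partners, edgeR called 0, with 2 at an unadjusted p under 0.05 and a median log2 fold change of 0.00. Cd36, a scavenger receptor that assists Tlr2 and Tlr6, had 28.8 ± 3.16 CPM in gKO libraries and 19.7 ± 3.80 CPM in gWT libraries (log2 fold change 0.55, adjusted p = 0.381). Ly86, which pairs with the receptor-like protein Cd180, had 324, 312 and 695 CPM in gKO libraries and 229, 287 and 273 CPM in gWT libraries (0.75, adjusted p = 0.414), with gKO replicate 3 highest as for Cd14. Without that library edgeR called Lbp, the lipopolysaccharide-binding protein, lower (log2 fold change -1.17, adjusted p = 0.0121).

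Chaperones and proteases that carry the receptors to endosomes and trim them showed no call either, at 0 of 11 by edgeR with 0 at an unadjusted p under 0.05 and a median log2 fold change of -0.03. Unc93b1, the chaperone that the receptors of nucleic acids need to reach endosomes, had 1660 ± 161 CPM in gKO libraries and 1819 ± 107 CPM in gWT libraries (± SD, n = 3 per genotype), a log2 fold change of -0.13 (adjusted p = 0.777 by edgeR). Tmed7, a cargo receptor for Tlr4, had 345 ± 79.1 CPM in gKO libraries and 298 ± 4.87 CPM in gWT libraries (0.21, adjusted p = 0.726). Of 5 further adaptors and adaptor partners, edgeR called 0, with 0 at an unadjusted p under 0.05. Tirap, which links MyD88 to Tlr2 and Tlr4, had 29.3 ± 7.74 CPM in gKO libraries and 22.2 ± 4.28 CPM in gWT libraries (0.40, adjusted p = 0.612). Ticam1, which encodes the TRIF used by Tlr3, had 33.3 ± 7.69 CPM in gKO libraries and 28.8 ± 2.94 CPM in gWT libraries (0.21, adjusted p = 0.787). DESeq2 and both forms of limma-voom called 0 genes in the lists of surface partners, chaperones and proteases, and adaptors.

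Downstream of the adaptors, the 20 kinases and ubiquitin enzymes had 0 calls by edgeR. An unadjusted p under 0.05 was found in 4 of them, beside 1460 of 13403 tested genes. The log2 fold change was positive in 17, with a median of 0.19, beside 0.01 over all tested genes. Tbk1, a kinase of interferon regulatory factors, had 84.7 ± 2.19 CPM in gKO libraries and 62.6 ± 6.35 CPM in gWT libraries (± SD, n = 3 per genotype), with a log2 fold change of 0.44 (adjusted p = 0.276 by edgeR). Traf6, the ligase next after the IRAK kinases, had 61.7 ± 5.32 CPM in gKO libraries and 47.3 ± 1.92 CPM in gWT libraries (0.38, adjusted p = 0.361). Without gKO replicate 3 edgeR called 3 of the 20 higher, Traf6, Tab2, which links TRAF6 to the next kinase, and Tbk1. In that fit 3.99% of all tested genes were called higher. Limma-voom with sample quality weights called Tab2 higher, as it did 2.13% of tested genes, and DESeq2 and limma-voom called 0. The 8 transcription factors that the receptors activate had 0 calls by all of these tests, 0 at an unadjusted p under 0.05 and a median of -0.09. Irf7, which Tlr7 and Tlr9 engage through MyD88, had 12.4 ± 1.92 CPM in gKO libraries and 15.5 ± 3.85 CPM in gWT libraries (-0.32, adjusted p = 0.72 by edgeR). Irf8, a factor that microglia need to develop, had 404 ± 42.2 CPM in gKO libraries and 449 ± 7.80 CPM in gWT libraries (-0.15, adjusted p = 0.735).

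Inhibitors of the pathway and the genes that receptor ligands switch on in macrophages were the lists with calls. These lists were drawn up with earlier results of these libraries known, so their counts are no independent evidence of a direction. Of 15 tested inhibitors, edgeR called 4 higher and 0 lower, beside 0.395% of all tested genes called higher. Atf3, a transcriptional repressor of cytokine genes, had 641 ± 26.3 CPM in gKO libraries and 239 ± 9.20 CPM in gWT libraries (± SD, n = 3 per genotype), with a log2 fold change of 1.42 (adjusted p = 0.00431). Dusp1, a phosphatase of MAP kinases, had 1324 ± 72.9 CPM in gKO libraries and 559 ± 26.8 CPM in gWT libraries (1.24, adjusted p = 0.00946). Nfkbia, the inhibitor that holds NF-kB in the cytoplasm and that NF-kB itself induces, had 484 ± 44.2 CPM in gKO libraries and 209 ± 6.34 CPM in gWT libraries (1.21, adjusted p = 0.0104). Tnfaip3, a ubiquitin-editing enzyme, had 232 ± 44.7 CPM in gKO libraries and 107 ± 8.65 CPM in gWT libraries (1.12, adjusted p = 0.0346). None of the other tested inhibitors, such as Tollip (0.12, adjusted p = 0.818), was called.

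Of 19 tested genes that receptor ligands induce, edgeR called 6 higher and 0 lower, beside 0.395% of all tested genes called higher. The median log2 fold change was 1.68. Nfkbiz and Nfkbid encode nuclear relatives of Nfkbia. Nfkbiz had 187 ± 14.2 CPM in gKO libraries and 54.1 ± 3.98 CPM in gWT libraries (± SD, n = 3 per genotype), with a log2 fold change of 1.79 (adjusted p = 0.00246), and Nfkbid had 63.6 ± 6.06 CPM in gKO libraries and 19.1 ± 0.560 CPM in gWT libraries (1.73, adjusted p = 0.00519). Tnf, tumour necrosis factor, had 117 ± 21.7 CPM in gKO libraries and 27.7 ± 5.52 CPM in gWT libraries (2.08, adjusted p = 0.00975). The chemokine gene Cxcl10 had 43.4 ± 16.0 CPM in gKO libraries and 11.6 ± 1.81 CPM in gWT libraries (1.90, adjusted p = 0.0326). The chemokine genes Ccl3 and Cxcl2 were the other 2 called. Il1b (1.28, adjusted p = 0.0733) was not called, nor was Icam1 (-0.05, adjusted p = 0.927).

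Both counts depended on the libraries used. Without gKO replicate 3, edgeR called 5 inhibitors and 10 induced genes higher. Without gKO replicate 1 it called 1 and 2, and again 1 and 2 without gKO replicate 2. Over the whole table edgeR called 551 (3.99% of tested genes), 4 and 4 genes higher in these fits, against 53 with all 6 libraries. Without any 1 of the gWT libraries it called 0 of either list, as it did of the whole table. All 11 tested neutrophil markers, given above, had a positive log2 fold change. So did 10 of the 15 tested inhibitors and 15 of the 19 tested induced genes. Neutrophils express many of the induced genes. Markers of fibroblasts, of endothelial and mural cells and of astrocytes differed the other way. The 6 fibroblast markers, 3 of them called lower by edgeR, summed to 116 CPM in each gKO library and 247 to 335 CPM in gWT libraries. The 10 endothelial and mural markers, 2 of them called lower, summed to 316 to 425 CPM in gKO libraries and 667 to 858 CPM in gWT libraries. All 8 astrocyte markers had a negative log2 fold change, with 0 called and 4 at an unadjusted p under 0.05, and summed to 256 to 310 CPM in gKO libraries and 361 to 410 CPM in gWT libraries. The 8 oligodendrocyte markers, 1 of them called higher, summed to 378 to 448 CPM in gKO libraries and 349 to 363 CPM in gWT libraries. The 8 markers of border macrophages, with 0 called, summed to 1625 to 1713 CPM in gKO libraries and 1483 to 1552 CPM in gWT libraries. The sums of the 8 neuron markers overlapped, at 14.1 to 22.4 CPM in gKO libraries and 17.7 to 25.6 CPM in gWT libraries. The part of all these cells, or of sex, in the counts was not tested.

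**Figure D4:**
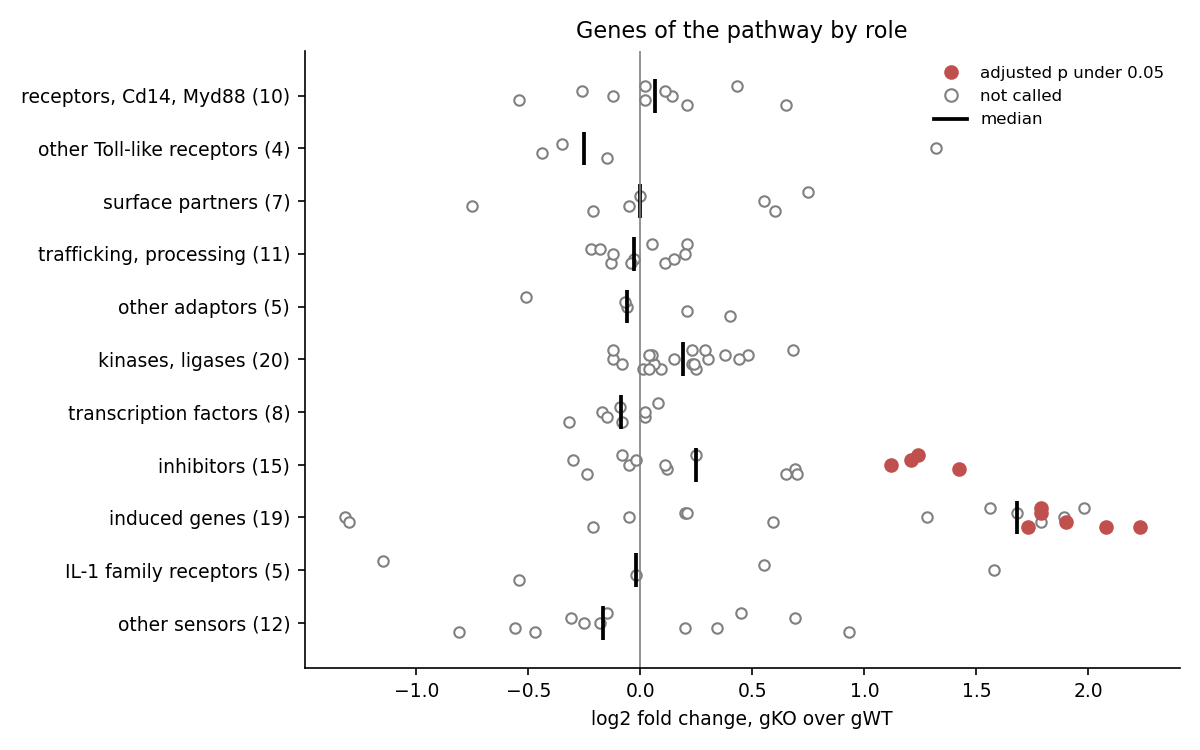
Log2 fold change of gKO over gWT (x axis, edgeR with all 6 libraries) of each tested gene, grouped by role (y axis, number of tested genes in brackets). Red points passed an adjusted p under 0.05, open points did not, and black bars are list medians. The red points are confined to the inhibitors (4 of 15) and the induced genes (6 of 19), and the receptors with Cd14 and Myd88 lie around their median of 0.07.

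In the authors' deposited tables of 75 genes higher and 201 genes lower in gKO, 0 of the 10 genes appears. The smallest log2 fold change in the authors' deposited table of higher genes is 1.03 in size, and in that of lower genes 1.0, so a difference of the size seen for Tlr7 would not be listed there. The authors' deposited table of higher genes names 11 of the 22 listed induced genes and 4 of the 16 listed inhibitors, beside 75 of all 24411 symbols. It rests on the same libraries, and the lists were drawn up with earlier results known. These counts are hence no independent evidence.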

How the data were processed

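Primary microglia of 2 genotypes were profiled by RNA-seq. The authors deposited expected counts per gene symbol, estimated and unscaled, of which 2.64% to 3.65% per library are not whole. The authors also deposited tables of genes called in either direction. Per the file headers these hold a mean normalized signal, a log2 fold change with its standard error and statistic (scores), and p-values. STAR 2.7.9a, RSEM, DESeq2, GRCm38 and mm10 are named in the submitters' processing notes. No annotation or strandedness is given in the sources used here, so reads of a gene and an antisense partner cannot be told apart.

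Expected counts were rounded and fitted in R 4.3.3 with edgeR 4.0.16, using TMM, filterByExpr and a robust quasi-likelihood test on genotype. P-values were adjusted by the Benjamini-Hochberg method over 13403 genes, of which 53 were called higher and 31 lower at an adjusted p under 0.05 (1460 at an unadjusted p under 0.05). The SE was obtained by dividing the size of the log2 fold change by the root of F. Levels are CPM, as mean ± SD. Profiles used log2 CPM with a prior count of 2. Other settings were upper-quartile and RLE scaling, DESeq2 1.42.0, voom of limma 3.58.1 with and without sample quality weights, other filters, a replicate block, removal of the trend with exon length, and each library left out. Tlr1 and Tlr6 were summed, and coding length was used, after the data were seen. Libraries of a group differed by more than counting noise (chi-square per degree of freedom 6.49 to 101), so none was taken for a library deposited again, which does not show that they come from separate animals.

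Names, lengths and coordinates come from GENCODE M21 on GRCm38, which matched 23365 symbols by name and 660 by synonym, with 386 unmatched. Coordinates are 1-based. The genes and lists were chosen with earlier results of these data known. All 10 genes are named. From each list the text names up to 4 called genes by smallest p or, where none was called, the 2 with the smallest p. Also named are Mir137, Xist, the Y-linked genes and the 3 profiles closest to Tlr7. A few other listed genes, such as Tlr5, Tlr8, Lbp and Il1b, and the profiles closest to Tlr9 and Cd14 were named after their values were seen.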

Additional observations from a re-analysis of the deposited data

How the results depend on the processing

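Over the 10 genes, 141 of 152 log2 fold changes under another setting kept their direction and their side of the threshold. Another 5 passed the threshold that the value with all libraries missed (Tlr7 in 4 settings, Tlr13 in 1), and 6 changed sign: Tlr2 at -0.01 with upper-quartile scaling and -0.04 without gWT replicate 1 (-0.04 to 0.07 over all libraries left out), and Tlr6 at -0.02 with upper-quartile scaling, -0.05 without gKO replicate 1, -0.03 without gKO replicate 2 and -0.07 without gWT replicate 2 (-0.07 to 0.11 over all libraries left out). Genes of the 10 called higher numbered 0 with all libraries, 1 each with DESeq2, with sample quality weights and with the trend with exon length removed, and 0 to 2 when each library was left out. Over the whole table, 53 higher and 31 lower calls became 179 and 235 with DESeq2, 285 and 173 with sample quality weights, and 102 and 79 with the trend with exon length removed. Without a filter on low counts 47 were lower. Leaving out each library gave 0 to 551 higher and 0 to 528 lower. The 4 inhibitors called higher ranged from 0 to 5 over the libraries left out. The 6 induced genes became 10 with DESeq2, 10 with sample quality weights and 0 to 10 over the libraries left out. Nothing in the labels says that a replicate number pairs libraries. The deviations of same-numbered libraries from their group means correlated at 0.05, -0.05 and 0.02. With so few libraries these values cannot show whether any were paired. With the replicate block edgeR called 11 genes higher and 7 lower, 3 induced genes, and Tlr7 at an adjusted p of 0.217. The causes were not tested.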

Other observations

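Receptors of the interleukin-1 family use the same adaptor, Myd88. Of 6 in the list, 5 were tested, and edgeR, DESeq2 and both forms of limma-voom called 0. By edgeR, 2 had an unadjusted p under 0.05, beside 1460 of 13403 tested genes. Il18rap, a subunit of the interleukin-18 receptor, had 4.47, 5.01 and 6.86 CPM in gKO libraries, against 0.648, 3.20 and 1.58 CPM in gWT libraries, and the groups did not overlap. Its log2 fold change was 1.58 (adjusted p = 0.377 by edgeR). Il1rl1, the interleukin-33 receptor, had 29.4, 20.7 and 24.2 CPM in gKO libraries, against 19.0, 17.1 and 14.8 CPM in gWT libraries, again without overlap (0.55, adjusted p = 0.384). Without gKO replicate 3, edgeR called Il1rl2 lower (-0.65, adjusted p = 0.0469), as it did 3.82% of all tested genes.

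Of 12 pattern sensors outside the Toll-like family, edgeR called 0, and their median log2 fold change was -0.17. An unadjusted p under 0.05 was found in 3 of them, beside 1460 of 13403 tested genes. Nod1, a cytoplasmic sensor of bacterial peptidoglycan, had 23.2, 26.3 and 15.2 CPM in gKO libraries, against 39.5, 35.7 and 38.6 CPM in gWT libraries. All gKO libraries lay below all gWT libraries, with a log2 fold change of -0.81 (adjusted p = 0.203 by edgeR). Aim2, a sensor of cytoplasmic DNA, had 55.5, 84.1 and 93.9 CPM in gKO libraries, against 42.5, 54.0 and 48.3 CPM in gWT libraries, and all gKO libraries lay above all gWT libraries (0.69, adjusted p = 0.275). Nod1 (-0.62, adjusted p = 0.0176) and Tmem173, which encodes the adaptor STING (-0.44, adjusted p = 0.00188), were called lower by edgeR without gKO replicate 3. In that fit 3.82% of all tested genes were called lower. Limma-voom with sample quality weights called the same 2 genes lower, as it did 1.29% of tested genes, and DESeq2 and limma-voom called 0. What makes that library differ was not tested.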
